A study of Mus musculus with 474 samples.

Results

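Numb, Notch and cell polarity genes were followed through the first division of mouse haematopoietic stem cells (HSCs), the bone marrow cells from which all blood cells descend. The 10 genes were taken by name from the 55450 genes of the deposited count tables, and every one of them was measured: Numb and Numbl, the receptors Notch1 and Notch2, the Notch target Hes1, the RNA-binding protein gene Msi2, and the polarity genes Pard3, Llgl1, Cdc42 and Prkci. HSCs of male wild-type C57BL/6JRj mice, 12 to 19 weeks old, were filmed in culture until they had divided once, whereupon a micromanipulator lifted out single daughters for Smart-seq2, a method that reads full-length transcripts of 1 cell per well. Within a division the daughter that received more lysosomes than its sister was labelled high, and the other low. All cells shared this strain, sex, age range and culture, and no untreated or undivided cells were compared here. Divisions with 1 high and 1 low daughter came from 9 culture experiments, which are the replicates: experiments 69, 74, 75, 76 and 77 of sequencing run 4 gave 12, 27, 33, 38 and 26 divisions, and experiments 60, 68, 72 and 73 of run 5 gave 20, 17, 11 and 19. A further 68 cells, 39 high and 29 low, had no sequenced sister and entered only the levels over all cells and an alternative of the comparison of high with low daughters. How many mice went into a culture is not given, so the spread between experiments may be partly technical.

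In Notch signalling, a ligand on one cell leads to cleavage of the receptor on its neighbour, and the freed intracellular part joins RBPJ and Mastermind proteins in the nucleus to switch on genes such as Hes1, a transcriptional repressor. Numb and its relative Numbl are adaptor proteins that promote removal of Notch receptors, and in the fly Numb protein is passed to one daughter of an asymmetric division, where it lowers Notch activity. Msi2 is an RNA-binding protein of the Musashi family, whose members are known to repress translation of Numb mRNA. In polarised cells PARD3, a PAR6 protein and the atypical protein kinase C encoded by Prkci form a complex that binds the GTPase CDC42, and Llgl1 encodes a cytoskeletal scaffold that this kinase keeps to the opposite side of the cell. These roles are those of proteins, whereas the values here are mRNA reads.

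Of 10 HSC markers the median was detected in 94.9% of cells, while Mpo, Ctsg, Cd3e, Rag1, C1qa, Fcer1a and Prss34, which mark myeloid, lymphoid, macrophage, basophil and mast cells, had no count in any cell. Other markers on those lists were detected, in up to 74.1% of cells for the 6 myeloid, 43.2% for the 6 mast cell and basophil, 30.6% for the 6 macrophage and dendritic and 12.2% for the 6 lymphoid markers. The 6 megakaryocyte markers, some of which HSCs are known to express, had a median of 56.2% of cells. Total counts per cell ranged from 76735 to 2444858, with a median of 846198. High and low daughters differed by -0.07 ± 0.17 in log2 total counts (SD, n = 9 experiments, exact sign-flip permutation p = 0.273) and by 67.6 ± 277.96 detected genes (exact p = 0.555). A score of G1/S genes, which cells express around the start of DNA synthesis, was higher in high daughters in 8 of 9 experiments, by 0.196 ± 0.197 (SD, n = 9, exact two-sided p = 0.0156, the smallest possible being 0.0039). Its part in the differences between high and low daughters was not tested.

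The genes spanned a wide range of levels. Per kb of exon sequence, and averaged over 9 experiments, the level was 203.5 ± 29.3 CPM per kb (counts scaled to 1000000 per library, per kb; SD) for Cdc42, 64.2 ± 17.5 for Msi2, 22.9 ± 4.21 for Notch2, 14.2 ± 2.41 for Llgl1 and 11.97 ± 1.999 for Numb. It was 5.48 ± 2.28 CPM per kb for Hes1, 3.42 ± 1.20 for Prkci, 2.43 ± 0.863 for Notch1, 1.49 ± 0.438 for Numbl and 0.0451 ± 0.0596 for Pard3. Neighbours in this order had separate ranges over the experiments only for Cdc42 above Msi2, Msi2 above Notch2, and Numbl above Pard3. Llgl1 stood above Numb in 6 of 9 experiments, and the other neighbours kept their order in 7 to 9. Notch2 mRNA was thus the more abundant of the receptors, and Numb that of the paired adaptors, in each case per kb.

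Msi2 and Cdc42 had a count in 100% of cells, Notch2 in 99.8%, Llgl1 in 96.8% and Numb in 92.4%. Prkci was detected in 80.2%, Notch1 in 76.8%, Numbl in 59.7%, Hes1 in 42.2% and Pard3 in 10.97% of cells. A cell with 0 counts can have lost its transcripts in library preparation, and after thinning of each cell to 300000 counts the share for Hes1 was 38.7%, against 43.5% unthinned in the same cells. Pard3 rested on few reads: high daughters held 130 counts in all, of which 43.8% came from 1 cell and 68.5% from 2, and low daughters held 46. Pard3 encodes the scaffold of the PAR complex, and its values are the least certain of the 10.

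Cells also differed from each other by different amounts. Over all cells the coefficient of variation of CPM was 29.1% for Cdc42, 54.6% for Notch2, 62.4% for Msi2, 71.3% for Llgl1 and 82.3% for Numb. It was 126.4% for Prkci, 132.05% for Notch1, 147.1% for Numbl and 209.8% for Hes1. It was 966% for Pard3. The spread was smallest for the GTPase gene Cdc42, and the part of counting noise in it was not tested.

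**Figure D1:**
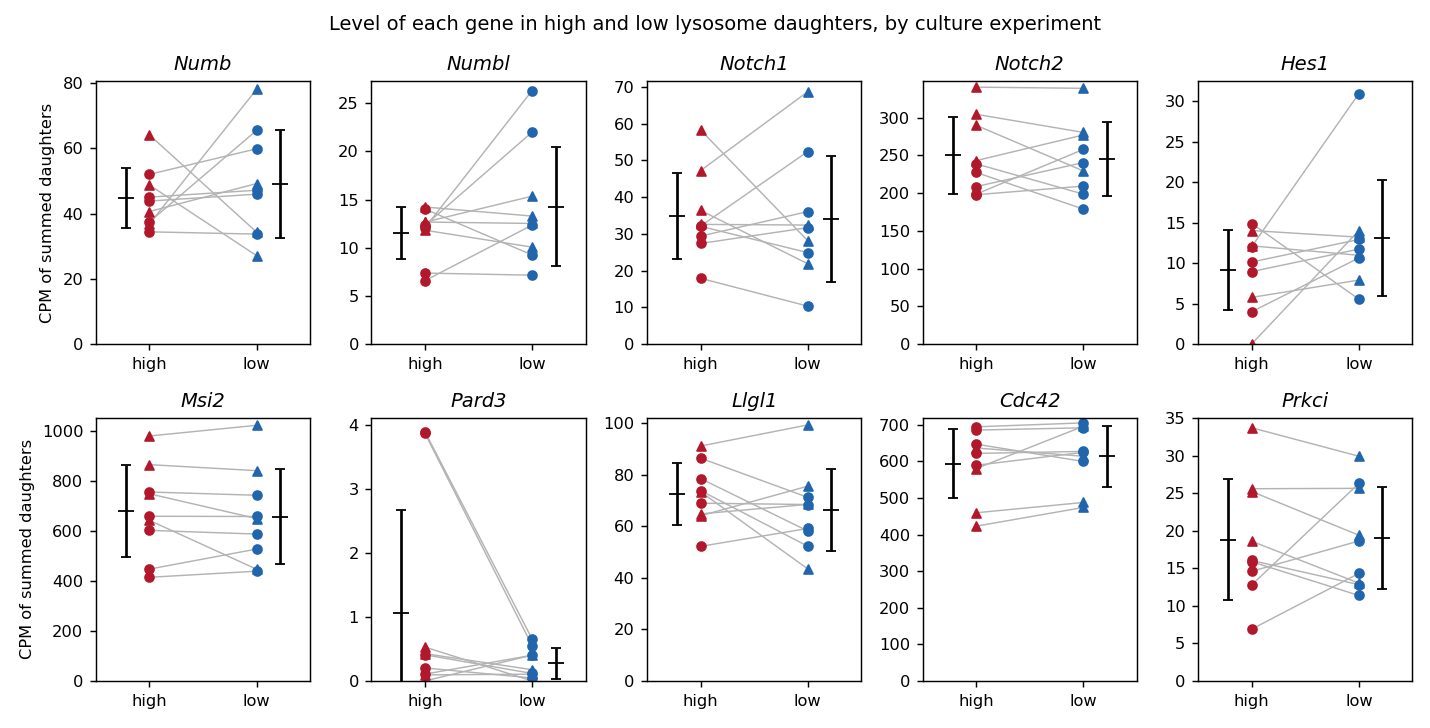
CPM of the counts summed over high (red) and low (blue) lysosome daughters, 1 panel per gene with its own axis from 0; each pair of joined points is 1 of 9 experiments (circles, sequencing run 4; triangles, run 5), and bars give the mean ± SD, cut off at 0. High and low points overlap in every panel, and the lines cross in both directions.

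The first comparison asked whether the daughter with more lysosomes held more or less mRNA of these genes. Counts were summed over the high and over the low daughters of each experiment and compared with edgeR's quasi-likelihood test, with the experiment as block. None of the 10 members passed an adjusted p of 0.05 (0.0% of all 15854 genes tested passed it), and none had an unadjusted p under 0.05, which 4.15% of all genes did (658 genes). DESeq2 on the same sums gave 3 genes past the threshold (0.0189%), none of them a member. Between members, 5 of 10 estimates were above 0, with a median log2 difference of -0.01, against a median of -0.00 over all genes tested, of which 7900 were above 0.

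Numb (chr12:83794034-83921934, GRCm38, minus strand), the adaptor that limits Notch activity, had 34.4, 43.8 and 64.04 CPM as the lowest, median and highest experiment in high daughters, against 27.1, 47.1 and 78.002 CPM in low daughters. The groups overlapped, and Numb was higher in the high daughters in 3 of 9 experiments. The largest gaps ran both ways: in experiment 60 Numb had 36.8 CPM in high daughters and 78.002 CPM in low ones, and in experiment 72 it had 64.04 CPM in high daughters and 34.3 CPM in low ones. The log2 difference was -0.08 ± 0.19 (SE, n = 9, edgeR adjusted p = 0.999), a fold of 0.943 with a 95% interval of 0.715 to 1.24.

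Numbl (chr7:27258433-27282144, plus strand), which encodes the related adaptor NUMB-like, had 6.60, 12.3 and 14.2 CPM in high daughters, against 7.16, 12.5 and 26.3 CPM in low daughters (lowest, median and highest experiment). Its groups overlapped as well, although the highest values, 22.02 and 26.3 CPM in experiments 74 and 77, were both in low daughters. The log2 difference was -0.24 ± 0.20 (SE, edgeR adjusted p = 0.999), with Numbl higher in high daughters in 5 of 9 experiments. Its sign differed between the fits: limma over the divisions, on log2(CPM + 1), gave 0.21 ± 0.21 (SE, unadjusted p = 0.322, adjusted p = 0.932). That fit differs from edgeR in both scale and weighting, and the part of each was not tested.

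Msi2 (chr11:88339382-88718513, minus strand), the Musashi gene, had 414.6, 659 and 980 CPM in high daughters, against 438.96, 650 and 1023 CPM in low daughters (lowest, median and highest experiment). The values followed the experiment rather than the label: experiment 72 was highest and experiment 75 lowest in both groups. The log2 difference was 0.05 ± 0.06 (SE, edgeR adjusted p = 0.999, higher in high daughters in 6 of 9 experiments), and its 95% interval as a fold ran from 0.943 to 1.13.

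Notch1 (chr2:26457903-26516663, minus strand), a receptor known for driving T cell fate, had 17.9, 32.1 and 58.2 CPM in high daughters, against 10.4, 31.7 and 68.6 CPM in low daughters. Notch2 (chr3:98013527-98150361, plus strand), the more abundant receptor here, had 197.9, 238.7 and 340 CPM in high daughters, against 178.9, 240 and 338.7 CPM in low daughters. The groups overlapped for both receptors, and each was higher in high daughters in 5 of 9 experiments. The log2 differences were 0.12 ± 0.18 for Notch1 and 0.02 ± 0.08 for Notch2 (SE, edgeR adjusted p = 0.999 for both). The 95% interval for Notch2, 0.904-fold to 1.14-fold, was narrower than that for Notch1, 0.824-fold to 1.43-fold. Between runs Notch2 mRNA differed more than between daughters: the experiments of run 5 lay at 257.8 to 340 CPM and those of run 4 at 202.4 to 230 CPM. This difference between runs was not tested.

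Of the Notch1 exon bases, 7.504% are shared with the antisense transcript 0610009E02Rik and 2.91% with Gm13568, and for Numb 4.24% are shared with the antisense Gm46367. Whether the counting used strand is not given in the sources used here, so reads of those stretches cannot be told apart.

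Hes1 (chr16:30064384-30067796, plus strand), the Notch target, had 0.0471, 10.2 and 14.9 CPM in high daughters, against 5.56, 11.7 and 30.9 CPM in low daughters. The groups overlapped, and Hes1 was higher in high daughters in 3 of 9 experiments. The log2 difference of -0.67 ± 0.55 (SE, edgeR adjusted p = 0.999) had a 95% interval from 0.276-fold to 1.43-fold, wide enough to hold a change in either direction. Experiment 68 carried much of it: high daughters had 0.0471 CPM, which was 1 count in 1 of 17 cells, and low daughters had 14.04 CPM, with counts in 6 of 17 cells. The ratio of high to low was 0.00335, with an exact 95% counting interval of 8.46e-05 to 0.0188, which covers counting error only. Without experiment 68 the log2 difference was -0.30, and limma over divisions, on log2(CPM + 1), gave -0.02 ± 0.17 (SE, unadjusted p = 0.896, adjusted p = 0.989). In contrast, experiment 76 had 14.9 CPM in high daughters and 5.56 CPM in low ones.

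Among the polarity genes, Cdc42 (chr4:137319696-137357720, minus strand), a small GTPase, had the narrowest interval of the difference between daughters. It had 422.95, 622 and 695 CPM in high daughters, against 474.1, 624.8 and 705 CPM in low daughters, with overlapping groups. Its log2 difference was -0.06 ± 0.04 (SE, edgeR adjusted p = 0.999), lower in high daughters in 7 of 9 experiments, and the 95% interval ran from 0.904-fold to 1.02-fold.

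Llgl1 (chr11:60699723-60714186, plus strand), the Lethal giant larvae relative, had 52.2, 73.3 and 91.04 CPM in high daughters, against 43.4, 68.4 and 99.2 CPM in low daughters. The groups overlapped, and Llgl1 was higher in high daughters in 5 of 9 experiments, most of all in experiment 60 with 73.3 CPM in high daughters and 43.4 CPM in low ones. On the summed counts the log2 difference was 0.14 ± 0.11 (SE, edgeR adjusted p = 0.999). Limma over divisions weighs every division equally and uses log2(CPM + 1). It gave 0.44 ± 0.14 (SE, unadjusted p = 0.00197, adjusted p = 0.701), the lowest unadjusted p of the members in that fit. In that fit 5.71% of all genes had an unadjusted p under 0.05. Llgl1 was higher in the high daughter in 57.6% of divisions and in the low daughter in 41.9%, and of sisters over 2-fold apart it was the high one in 62 divisions and the low one in 39. It was detected in the high daughter alone in 8 divisions and in the low daughter alone in 2. Over cells, Llgl1 had an r of 0.193 with the G1/S score, the score that was also higher in high daughters. Its r with the number of detected genes was 0.272, a number that was higher in high daughters in 5 of 9 experiments. The part of either measure in the Llgl1 values was not tested. This fit rests on divisions within 9 cultures, and its p missed the threshold after adjustment over 11699 genes.

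Prkci (chr3:30995747-31052959, plus strand), the atypical protein kinase C of the PAR complex, had 6.91, 16.04 and 33.7 CPM in high daughters, against 11.4, 18.6 and 29.9 CPM in low daughters. The groups overlapped, with a log2 difference of -0.05 ± 0.19 (SE, edgeR adjusted p = 0.999, higher in high daughters in 5 of 9 experiments). Pard3 (chr8:127063893-127612286, plus strand) had 0, 0.408 and 3.89 CPM in high daughters, against 0, 0.175 and 0.652 CPM in low daughters. Only experiments 69 and 77 stood out, with 3.86 and 3.89 CPM in high daughters, against 0.551 and 0.652 CPM in low daughters. The fitted log2 difference was 1.15 ± 0.98 (SE, edgeR adjusted p = 0.999), and Pard3 was higher in high daughters in 6 of 9 experiments. It was 0.864 without experiment 69 and 0.889 without experiment 77. Of the Pard3 counts in high daughters, 68.5% came from 2 cells.

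The 95% interval of 8 of the 10 members, all but Hes1 and Pard3, excluded a change of 2-fold or more in either direction, as did that of 63% of all genes tested. A p that misses the threshold does not show equality, but for Cdc42, Msi2 and Notch2 the intervals all lay between 0.904-fold and 1.14-fold.

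No member passed the test of a different high minus low difference between sequencing runs. The edgeR test of the label by run interaction gave 0 genes past the threshold (0.0%), 4.24% of genes with an unadjusted p under 0.05, and no member among these. The smallest unadjusted interaction p of a member was 0.0826, for Msi2, whose log2 difference was 0.21 ± 0.11 larger in run 5 than in run 4 (SE).

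**Figure D2:**
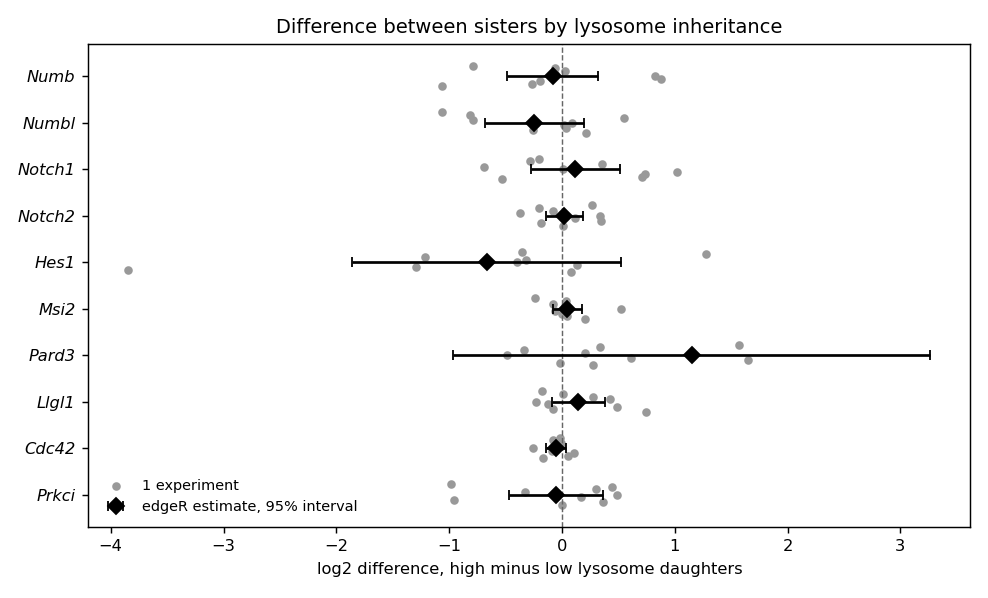
Log2 difference of each gene, high minus low lysosome daughters; black diamonds give the edgeR estimate with its 95% interval over 9 experiments, and grey points give single experiments as differences of log2(CPM + 1). All 10 intervals include 0; that of Cdc42 runs from -0.15 to 0.03 and that of Hes1 from -1.86 to 0.52.

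The second comparison asked how alike sisters were, whichever lysosome label they carried. For each gene an intraclass correlation (ICC) of log2(CPM + 1) was computed over all divisions after centring on experiment and plate. It is 0 where sisters are no closer than strangers of the same plate, and 1 where they are equal. Of the 9 members detected in at least 20% of paired cells, 3 passed an adjusted p of 0.05 in the F test over divisions: Hes1, Msi2 and Notch1. Of all 11699 genes tested, 26.4% passed (3084 genes), so 3 of 9 is near the background. The median ICC was 0.0835 over the 9 members and 0.0858 over all genes tested.

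Hes1 had the highest ICC of the members, 0.287 with a 95% interval of 0.155 to 0.410 (adjusted p = 0.000213, F test over divisions), above 91.5% of genes tested. By experiment the ICC was lowest at -0.175, had a median of 0.282 and was highest at 0.546, and it was above 0 in 8 of 9 experiments, experiment 68 being the exception. Both daughters had a Hes1 count in 48 divisions, 1 daughter in 75 and neither in 80. Independent daughters of the same experiments would give 36.7, 97.6 and 68.7 divisions. Where only 1 daughter had a count, it was the high daughter in 41 divisions and the low daughter in 34. Thus Hes1 counts were found in both sisters, or in neither, more often than in independent daughters; 0 counts are not read as absence.

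Hes1 kept its call with cell cycle scores regressed out (ICC 0.266, adjusted p = 0.00164), where 12.2% of all genes passed, and without any 1 of the 9 experiments (ICC 0.223 to 0.330). The ICC was 0.310 in run 5 (adjusted p = 0.0501), where 10.3% of genes and no member passed, and 0.277 in run 4 (adjusted p = 0.00506), where 21.4% of genes passed and Hes1 alone of the members. With the experiment as the unit, the mean absolute difference in log2(CPM + 1) was 1.66 between sisters and 2.18 between unrelated cells, and smaller between sisters in 8 of 9 experiments (exact sign-flip permutation p = 0.0117, adjusted p = 0.0808). By that test, which was added after the data had been seen, 8.86% of all genes passed and 0 members did.

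Msi2 had an ICC of 0.181, with a 95% interval of 0.0429 to 0.312 (adjusted p = 0.0242, F test over divisions), and was above 0 in 6 of 9 experiments. Experiments 69 and 76 were the highest, at 0.604 and 0.503, and the call was lost without either of them, with the ICC then as low as 0.123. Sisters were over 2-fold apart in Msi2 in 35.96% of divisions, against 42.9% of 9944 pairs of unrelated cells. The ICC was 0.136 with cell cycle scores regressed out (adjusted p = 0.139), so that the call did not hold, and over cells Msi2 had an r of -0.229 with the G2/M score, a measure of genes expressed before mitosis.

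Notch1 had an ICC of 0.164, with a 95% interval of 0.0263 to 0.297 (adjusted p = 0.0401, F test over divisions), and was above 0 in 8 of 9 experiments. It lay close to the threshold: the call was lost without experiment 60, 68, 69, 72, 74 or 75 (ICC at least 0.130 in all) and with cell cycle scores regressed out (ICC 0.137, adjusted p = 0.135). The ICC was 0.296 in run 5 and 0.0928 in run 4. Both daughters had a Notch1 count in 60.1% of divisions, 1 in 32.02% and neither in 7.88%, whereas independence would give 57.8%, 36.6% and 5.61%.

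Notch2, the other receptor, had an ICC of 0.00129 with a 95% interval of -0.137 to 0.141 (adjusted p = 0.605), and was over 2-fold apart in 34.98% of divisions against 37.6% of unrelated pairs. The difference in ICC between the receptors was not tested, and their intervals overlap.

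For Numb, no likeness of sisters beyond that of unrelated cells was detectable. Its ICC was -0.0228 with a 95% interval of -0.161 to 0.117 (adjusted p = 0.712, F test over divisions), lower than that of most genes (percentile 12.2), and above 0 in 2 of 9 experiments. Sisters were over 2-fold apart in Numb in 62.6% of divisions, against 61.4% of unrelated pairs. The higher sister was the high lysosome daughter in 58 of these divisions and the low one in 69. Both daughters had a count in 84.2% of divisions, against 84.97% if they were independent. The high daughter alone had one in 14 divisions, the low daughter alone in 18 and neither in 0. Where both had counts, the median distance was 1.16 on the log2(CPM + 1) scale. The part of technical noise in these distances was not tested.

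Numbl had an ICC of 0.0575 (95% interval -0.0819 to 0.195), Prkci of 0.0797 (-0.0598 to 0.217), Cdc42 of 0.0835 (-0.0559 to 0.220) and Llgl1 of 0.0999 (-0.0394 to 0.236), none past the threshold (adjusted p 0.178 to 0.340). For Numbl the counts in both, the high alone, the low alone and neither were 65, 60, 45 and 33 divisions, and 68.01 were expected in both under independence. Cdc42 stood at the other end of spread. Sisters were over 2-fold apart in 11 divisions (5.42%), against 5.22% of unrelated pairs, and its SD within divisions, 0.363 on the log2(CPM + 1) scale, was lower than that of all but 0.641% of genes tested. Few cells of any kinship differed by much in Cdc42. Pard3 was below the detection minimum. In a version of the test with a minimum of 5% of cells it had an ICC of 0.176 (95% interval 0.0382 to 0.308, adjusted p = 0.0337, 21.3% of all genes past the threshold), from 3 divisions with a count in both daughters against 2.23 expected.

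**Figure D3:**
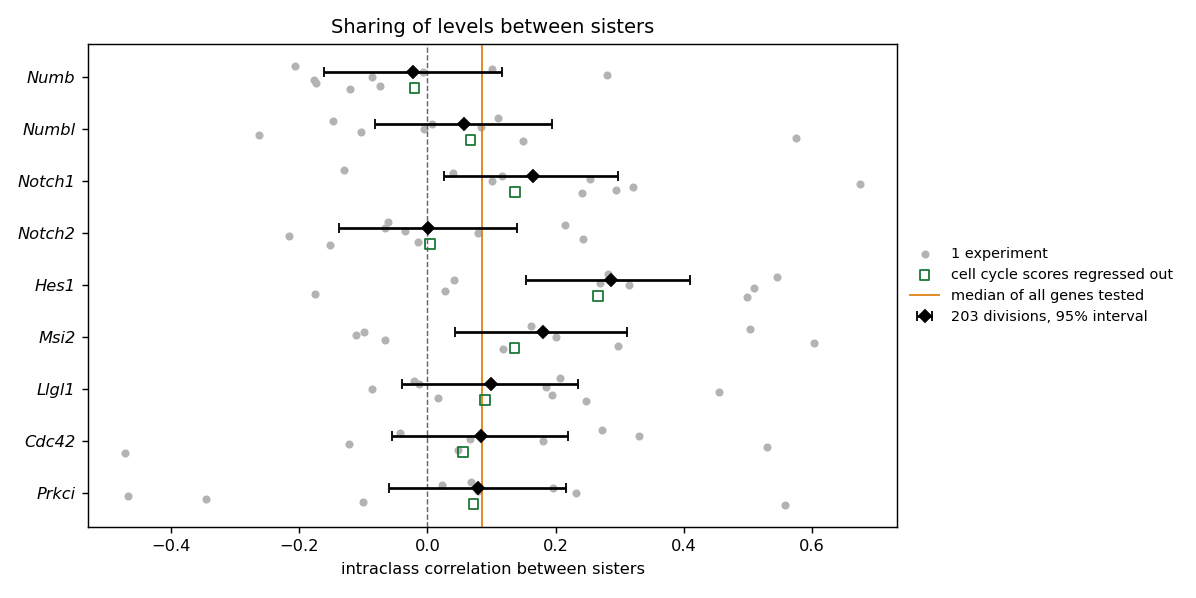
Intraclass correlation between sisters of log2(CPM + 1); black diamonds give the value over all divisions with its 95% interval, green squares the value with cell cycle scores regressed out, grey points single experiments, and the orange line the median of all genes tested, 0.0858. Hes1 has the highest value, 0.287, and Numb the lowest, -0.0228.

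**Figure D4:**
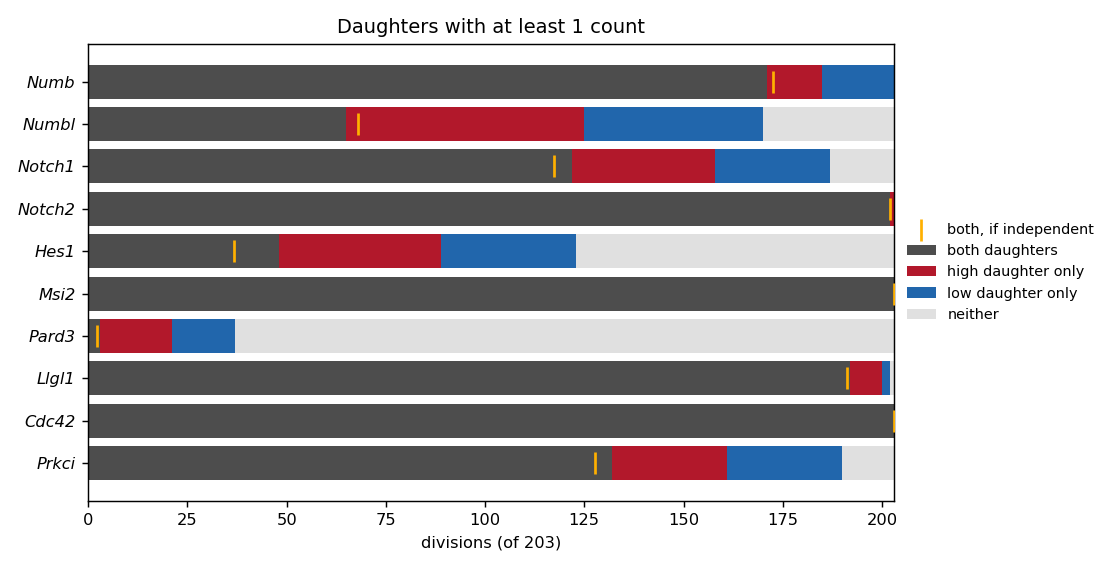
Numbers of divisions in which both daughters, the high daughter only, the low daughter only or neither had at least 1 count of each gene; the yellow mark is the number with a count in both that independent daughters would give. For Hes1, 48 divisions had a count in both against 36.7 expected, and for Numbl 65 against 68.01.

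Within cells some members moved together, and the pairs were not those of receptor and target. Over the cells of these divisions, centred on experiment and plate, the highest Pearson's r of the 36 pairs was 0.305, between Notch2 and Msi2 (Spearman's rank correlation 0.260). Numb and Notch2 followed with 0.260, Notch1 and Msi2 with 0.233, and Numb and Msi2 with 0.182. The pairs Notch2 with Msi2, Numb with Notch2 and Notch1 with Msi2 had a positive r in each of the 9 experiments. Numb with Msi2 had one in 8. All 4 were higher in run 5 than in run 4: Notch2 and Msi2 had 0.447 against 0.211, and Numb and Notch2 0.415 against 0.173. Notch1 and Msi2 had 0.282 against 0.206, and Numb and Msi2 0.279 against 0.137. This difference between runs was not tested. The r with the target Hes1 was -0.00414 for Notch1 and 0.0578 for Notch2, the latter positive in 6 of 9 experiments. Hes1 had a count in 42.1% of the paired cells, and the part of its 0 counts in these r values was not tested. Cdc42 had a negative r with genes of the leading pairs, -0.132 with Notch2 and -0.100 with Msi2. Cells share their library and its depth in all genes; with total counts and detected genes regressed out, the r was 0.266 for Notch2 and Msi2, 0.224 for Numb and Notch2, and 0.208 for Notch1 and Msi2.

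The same pairs were related in the differences between sisters. Over the high minus low differences of all divisions the r was 0.323 for Notch2 and Msi2, 0.294 for Numb and Notch2, 0.268 for Notch1 and Msi2, and 0.207 for Numb and Msi2. A division whose high daughter had more Notch2 than its sister thus tended also to have more Msi2 and Numb there, although none of the 3 passed the test by label.

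**Figure D5:**
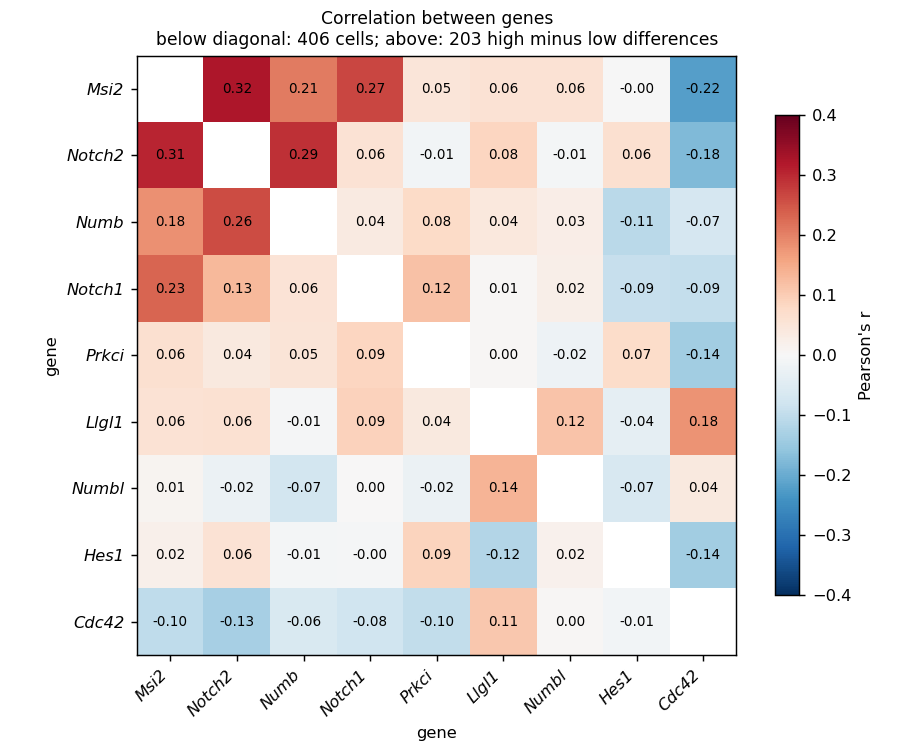
Pearson's r between 9 of the genes (Pard3 left out), below the diagonal over the paired cells and above it over the high minus low differences of the divisions, both on log2(CPM + 1) centred on experiment and plate. The highest values are those of Msi2 with Notch2, 0.31 below and 0.32 above the diagonal, and Cdc42 is negative with Msi2, Notch2, Numb and Notch1.

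The genes of these pairs lie in long loci. From the first to the last annotated base Msi2 spans 379.1 kb, Notch2 136.8 kb, Numb 127.9 kb and Notch1 58.8 kb. Prkci, which is not in these pairs, spans 57.2 kb, nearly as much as Notch1, whereas the median of the genes tested is 24.005 kb, and Hes1 spans 3.41 kb. Across 11698 other genes, which are not independent, the r of a gene with Msi2 had a Spearman's rank correlation of 0.556 with that gene's locus length. That rank correlation was 0.437 for Notch2, 0.391 for Numb, 0.330 for Notch1, 0.233 for Prkci, -0.0176 for Hes1 and -0.261 for Cdc42. With exon length in place of locus length it was 0.442 for Msi2, 0.378 for Notch2, 0.343 for Numb and 0.274 for Notch1. With depth and detected genes regressed out it was 0.497 for Msi2, 0.374 for Notch2, 0.320 for Numb, 0.269 for Notch1 and -0.214 for Cdc42. The genes most like Msi2 were of this kind: Elmo1 (r = 0.608, 518 kb), which acts in engulfment and Rac activation, Etv6 (r = 0.588, 234.5 kb), a transcriptional repressor needed by HSCs, and Lrmda (r = 0.558, 1036 kb). In sister differences their r with Msi2 was 0.591, 0.496 and 0.518. The part of locus or exon length in the correlations between members was not tested.

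The genes most like Notch1 over the paired cells were Camk2d (r = 0.310), a calcium-dependent kinase gene, the HSC marker Fgd5 (r = 0.280), whose protein is an exchange factor for CDC42, and Ptk2b (r = 0.272), a kinase gene. Those most like Hes1 were Exoc3l4 (r = 0.268) and Tnfaip2 (r = 0.262), which lie 10.8 kb apart on chromosome 12, and Rprm (r = 0.261), which encodes the cell cycle inhibitor Reprimo. None of these r values is high, and likeness was measured only over these cells.

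The promoter windows of the 4 genes in the most correlated pairs are shown so that letters bound by factors of the Notch pathway can be read in them. Each runs from 250 bases before to 50 bases after the most upstream RefSeq start, on GRCm38.p6, 5′ to 3′ on the gene's strand. Of the 10 members 9 had a window, and the Notch target Hes1 had none. Searched on both strands were the RBPJ core TGGGAA, the E-box CACGTG and the N-box CACNAG, of which HES proteins are known to bind E-boxes and N-boxes, and capitals mark any match.
Msi2 (chr11:88718228-88718527, minus strand): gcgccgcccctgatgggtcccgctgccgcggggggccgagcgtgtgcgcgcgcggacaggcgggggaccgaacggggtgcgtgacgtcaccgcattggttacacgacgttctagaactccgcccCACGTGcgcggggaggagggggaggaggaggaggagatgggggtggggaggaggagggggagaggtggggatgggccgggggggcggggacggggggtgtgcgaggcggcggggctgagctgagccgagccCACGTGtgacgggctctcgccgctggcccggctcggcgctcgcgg
Notch2 (chr3:98013288-98013587, plus strand): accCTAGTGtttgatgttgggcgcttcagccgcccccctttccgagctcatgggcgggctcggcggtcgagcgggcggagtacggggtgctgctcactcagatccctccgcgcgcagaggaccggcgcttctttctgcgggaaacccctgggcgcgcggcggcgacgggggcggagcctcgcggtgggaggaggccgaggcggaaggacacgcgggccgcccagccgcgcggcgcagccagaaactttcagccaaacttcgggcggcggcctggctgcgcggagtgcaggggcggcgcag
Numb (chr12:83921885-83922184, minus strand): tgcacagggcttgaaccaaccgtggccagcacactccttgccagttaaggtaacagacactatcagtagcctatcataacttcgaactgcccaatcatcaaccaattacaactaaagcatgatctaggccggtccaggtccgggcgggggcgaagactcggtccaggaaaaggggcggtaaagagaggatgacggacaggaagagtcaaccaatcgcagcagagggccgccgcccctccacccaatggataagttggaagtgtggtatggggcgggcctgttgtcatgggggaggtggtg
Notch1 (chr2:26503773-26504072, minus strand): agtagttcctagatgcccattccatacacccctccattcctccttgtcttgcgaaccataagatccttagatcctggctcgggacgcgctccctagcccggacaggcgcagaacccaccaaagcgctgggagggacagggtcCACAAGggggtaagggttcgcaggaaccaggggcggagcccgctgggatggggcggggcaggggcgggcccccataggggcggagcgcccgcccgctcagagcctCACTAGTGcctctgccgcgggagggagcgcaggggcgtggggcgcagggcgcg
The Msi2 window holds 2 E-boxes, a motif found in 7.15% of 32851 windows. That of Notch2 holds 1 N-box and that of Notch1 holds 3, of which a pair overlaps on opposite strands, and 42.5% of all windows hold this motif. Numb and Msi2 each have 3 RefSeq windows, of which only the most upstream was searched. The Numb window searched holds none of the 3 motifs. Any of the 3 is in 60.1% of all windows and in 5 of the 9 members' windows. None of these 4 holds the RBPJ core, which is in 25.6% of all windows, Llgl1 and Prkci among them. A match describes letters in a window and is not a measured site.

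Further genes of the pathway were taken from lists by role, and none passed the adjusted threshold for lysosome inheritance in any list. Of 6 Notch ligand genes 5 were tested, and 1 had an unadjusted p under 0.05, against 4.15% of all genes. This was Jag1, a ligand of HSC niches, detected in 30.8% of paired cells. Jag1 had 9.14 ± 5.14 CPM in high daughters and 5.38 ± 3.42 CPM in low ones (SD, n = 9). Its log2 difference was 0.95 ± 0.42 (SE, edgeR adjusted p = 0.999), with 0.416 in run 4 alone and 1.73 in run 5 alone. Limma over divisions, on log2(CPM + 1), gave 0.186 for Jag1. Of 16 genes of other receptors and their processing, 0 had an unadjusted p under 0.05, and the same held for 12 genes of the nuclear complex and for the 7 Notch target genes tested of 14. The ligand gene Jag2 had a shared level between sisters (ICC 0.235, adjusted p = 0.00306), as did the Mastermind genes Maml3 (ICC 0.209, adjusted p = 0.00905) and Maml2 (ICC 0.183, adjusted p = 0.0222). So did Lfng, which modifies Notch receptors with sugar (ICC 0.168, adjusted p = 0.0358), and Gata2, a regulator of HSCs (ICC 0.274, adjusted p = 0.000456). Sharing passed in 1 of 2 ligand genes tested, 1 of 14 receptor and processing genes, 2 of 12 nuclear genes and 1 of 4 target genes, against 26.4% of all genes tested. With cell cycle scores regressed out, Lfng (adjusted p = 0.0667) and Maml2 (adjusted p = 0.0993) lost the call, whereas Jag2, Maml3 and Gata2 passed, which left 1 of 2, 0 of 14, 1 of 12 and 1 of 4, against 12.2% of all genes.

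Of 23 Numb partners and Notch turnover genes 21 were tested for inheritance. Set against 4.15% of all genes, 2 of them had an unadjusted p under 0.05. These were the ubiquitin ligase genes Mib2, with 36.9 ± 11.02 CPM in high daughters and 26.1 ± 9.93 CPM in low ones, and Lnx2, with 27.8 ± 7.29 CPM in high daughters and 22.6 ± 7.09 CPM in low ones (SD, n = 9; edgeR adjusted p = 0.999 for both). Lnx2 encodes a NUMB-binding protein, and Mib2 a ligase known to act on Notch ligands. Sharing between sisters passed in 4 of 19, against 26.4% of all genes, and in 4 with cell cycle scores regressed out, against 12.2%. Before that correction these were led by Trp53 (ICC 0.381), whose protein NUMB is known to bind, and the ubiquitin ligase gene Nedd4 (ICC 0.321). With cell cycle scores regressed out the ICC was 0.222 for Trp53 and 0.314 for Nedd4.

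Of 16 genes of the PAR, Crumbs and Scribble groups, 2 had an unadjusted p under 0.05 for inheritance, against 4.15% of all genes. Their directions were opposite in edgeR. Llgl2, the relative of Llgl1, had 16.9 ± 6.21 CPM in high daughters and 11.4 ± 5.26 CPM in low ones (SD, n = 9), higher in high daughters in 8 of 9 experiments (log2 difference 0.62 ± 0.17 SE, edgeR unadjusted p = 0.00278, adjusted p = 0.999). Pard3b, the relative of Pard3, had 190.9 ± 61.3 CPM in high daughters and 225.8 ± 102.6 CPM in low ones, higher in high daughters in 2 of 9 experiments (log2 difference -0.21 ± 0.08 SE, adjusted p = 0.999). Limma over divisions, on log2(CPM + 1), gave 0.0294 for Pard3b, which is of the other sign. Neither Llgl2 nor Pard3b is past the threshold after adjustment. Pard3b was thus read at a far higher CPM than Pard3, which had 1.06 CPM in high daughters and 0.272 CPM in low ones on average, both on a scale not divided by length.

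For the spindle orientation genes, 0 of 9 tested had an unadjusted p under 0.05 for inheritance. Sharing passed in 2 of 8 spindle orientation genes tested and in 2 of 14 PAR, Crumbs and Scribble genes, against 26.4% of all genes. With cell cycle scores regressed out it passed in 0 and 1 of these, against 12.2%. Gpsm2, which links the spindle to the cell cortex, had the highest ICC of any listed Notch or polarity gene, 0.556, passing with an adjusted p of 2.68e-16, but 0.105 with cell cycle scores regressed out (adjusted p = 0.238). Of 23 Cdc42 regulators and effectors, 1 had an unadjusted p under 0.05, against 4.15% of all genes. It was the kinase gene Pak2, with 151.1 ± 19.8 CPM in high daughters and 137.6 ± 15.6 CPM in low ones (SD, n = 9, edgeR adjusted p = 0.999). Sharing passed in 8 of the 23 Cdc42 regulators and effectors, and in 3 with cell cycle scores regressed out, against 26.4% and 12.2% of all genes. They were led by Tiam1 (ICC 0.284), an exchange factor gene.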

How the data were processed

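The authors deposited counts, whole numbers of reads per gene that they had not normalized, and a table of labels for each cell (experiment, movie, position, colony, plate, run, lysosome label). Per the submitters' processing notes, reads were counted by featureCounts (Subread 1.5.0), and SAMtools was used. No source used here gives the aligner, the genome build or how the lysosome label was set. All 55450 gene IDs occur in GENCODE mouse release 21 (GRCm38), from which symbols, positions and exon lengths were taken. The 92 spike-in RNAs stayed out of totals. Left unused were 86 count columns of run 4 and 85 of run 5 that match no sample. The labels of 59 cells name the label table of run 4 but the count table of run 5; their titles and both tables of run 5 hold them, so they were taken as run 5.

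Cells with the same movie, experiment, position and colony are sisters, and a division needed 1 high and 1 low daughter. Deposited counts were summed per experiment and label for edgeR 4.0.16 in R 4.3.3 (TMM, filterByExpr, quasi-likelihood test), with Benjamini-Hochberg adjustment over all genes tested. The experiment was a block in this test, since both daughters of a division belong to the same culture. DESeq2 1.42.0 and limma 3.58.1 with the division as block were alternatives. CPM scales the counts on genes of a cell or sum to 1000000, single-experiment differences use log2(CPM + 1), and CPM per kb divides by the union of a gene's exons. ICCs use log2(CPM + 1) and an F test over divisions, whose p-values rest on divisions within 9 cultures. Other steps ran in Python 3.11.15 (scipy 1.17.1, numpy 2.4.6, pandas 2.3.3, matplotlib 3.10.9), and both models were tested on simulated data. Exact tests were two-sided.

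The members and gene lists were chosen with earlier results of these data known. Named are the members, up to 3 genes of each list by unadjusted p and up to 3 by ICC, and the 3 genes most correlated with each member past the sharing threshold; not all of these are printed. Reads carry no molecular identifiers, so counting intervals cover counting error only.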

Additional observations from a re-analysis of the deposited data

Results flagged for a closer look

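Of 29 sets of 9 experiments checked for 1 value far from the others (levels, high minus low differences and ICCs of the members), 3 passed Dixon's 95% critical value, which chance alone passes in about 1 of 20 sets. The Hes1 difference, high minus low in log2(CPM + 1), was -3.84 in experiment 68, where high daughters had 0.0471 CPM and low daughters 14.04 CPM, and the next lowest was -1.29. The Hes1 level was 21.8 CPM in experiment 69, against 13.6 CPM in the next highest. The Numbl ICC was 0.575 in experiment 68, against 0.149 in the next highest. Hes1 was detected in 42.2% and Numbl in 59.7% of cells. The cause was not tested for any of these.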

How the results depend on the processing

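No member passed the inheritance threshold under any alternative in which it was tested. Pard3 was not tested by limma over divisions or in run 5 alone. All genes past it were 0 in each, also without the replicate block, except 3 with DESeq2 as the test. Leaving out each experiment gave 0 to 0 genes and 0 to 0 members. Estimates that changed sign were log2 0.0941 for Numb, 0.00651 for Numbl and 0.256 for Prkci in run 5 alone, -0.0267 for Notch1, -0.00746 for Notch2, -0.0460 for Msi2 and 0.000493 for Cdc42 in run 4 alone, and 0.209 for Numbl with limma over divisions. Without 1 experiment, Numb lay at -0.204 to 0.0409, Notch2 at -0.0187 to 0.0725, Msi2 at -0.0120 to 0.0824 and Prkci at -0.123 to 0.0718.

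For sharing, 1037 genes and 0 members passed by absolute differences over experiments (added after the data had been seen), 1432 genes and 1 member with cell cycle scores regressed out, 1199 genes and 0 members in run 5 alone, and 1 member in run 4 alone. Without 1 experiment, 2642 to 3150 genes and 1 to 3 members passed. ICCs that changed sign were 0.0106 for Numb and -0.00678 for Numbl in run 4 alone, -0.0243 for Notch2 and -0.0780 for Cdc42 in run 5 alone, and -0.0115 for Prkci after thinning, which left out 17 divisions. Without 1 experiment, Numb lay at -0.0668 to 0.0130 and Notch2 at -0.0254 to 0.0184. Single runs hold fewer divisions; otherwise the cause was not tested.

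Thinning to an equal depth gave a count in 73.7% of cells for Prkci, against 81.7% unthinned, in 6.18% against 10.2% for Pard3, and in 55.6% against 59.4% for Numbl; a count of 0 is not read as absence. mRNA says nothing of where the proteins went.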
